A study of Mus musculus with 6 samples.

Results

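Solute carriers are membrane proteins that move nutrients, ions, metals, vitamins and metabolites across the plasma membrane and the membranes of mitochondria, lysosomes and the Golgi. The genes described here are those whose single gene symbol on the array's platform has the form Slc, a family number, the letter a and a member number. Slc2a1, Slc2a3, Slc16a1, Slc16a3, Slc7a11, Slc40a1 and Slc11a2 were set aside. The rule gave 302 symbols. Of these, 133 genes of 40 families reached a signal of 100 on at least 1 array, out of 9678 genes that did so, and 169 stayed below 100 on every array. The highest signal of Slc37a1 was 90.5, of Slc6a2 92.6 and of Slc5a6 96.9, just outside that minimum, against 103.0 for Slc4a11, 105.4 for Slc30a3 and 118.9 for Slc24a3 just inside it. The brightest probe set, a group of short probes that gives 1 signal, stood for each gene.

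The study asked how G1-arrested murine pre-B cells respond to DNA damage by ionizing radiation. Its 6 arrays hold 3 WT pre-B cell lines that were derived independently, each mock-irradiated (0 Gy) and irradiated with 1 Gy of γ-rays, so that 3 arrays per dose were compared, paired by line. All arrays share v-abl transformation, which keeps B cell precursors dividing, and an Eμ-Bcl2 transgene, driven in lymphocytes by an immunoglobulin enhancer, whose product counters apoptosis. All cells were held for 48 hours in 3 μM STI-571 (imatinib), an inhibitor of the Abl kinase, and were collected 2 hours after irradiation at 0.72 Gy per minute. No untransformed cells and no cells without STI-571 were compared here, and the ages of the source mice are not given in the sources used here.

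The median signal of the arrays was 51.6 to 59.4, and 41.7% to 43.8% of probe sets reached 100. By their brightest probe sets, all 10 B lineage markers measured were at 100 or more on at least 1 array, among them Cd79b, Pax5 and Vpreb1 (summed signal 117989 to 120632 at 0 Gy and 94233 to 123740 at 1 Gy). Rag1 (log2 change -1.77, adjusted p = 0.011) and Rag2 (-2.40, adjusted p = 0.0103) of this list fell. None of 8 T cell, 6 erythroid or 7 stromal markers reached 100. Of 9 myeloid markers only Itgam reached 100 by its brightest probe set, and the list's summed signal was 276 to 362 at 0 Gy and 402 to 487 at 1 Gy, with the defining markers Lyz2, Csf1r and Mpo under 100. Itgam was the marker that rose (0.87, adjusted p = 0.0227), and a dimmer Csf1r probe set, at 117 in mock line 3, fell (-0.88, adjusted p = 0.0478). Of 4 plasma cell markers 3 reached 100, with a summed signal of 11116 to 12453 at 0 Gy and 19682 to 23279 at 1 Gy, and Jchain was under 100 on every array. Irf4 rose (1.00, adjusted p = 0.0183), Sdc1 fell (-0.65, adjusted p = 0.0461) and Prdm1 did not pass (0.42, adjusted p = 0.259). The ratio of the 3' to the 5' actin probe sets, a measure of RNA integrity, was 1.40 to 1.5 at 0 Gy and 1.26 to 1.38 at 1 Gy, and that of Gapdh, which overlapped between doses, was 0.768 to 0.9 and 0.785 to 0.8. The part of these shifts in the results below was not tested. In these bulk samples, fewer cells of a type and less RNA per cell cannot be told apart.

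After 1 Gy, more solute carrier genes fell than rose. Of the 133 genes, 9 rose (6.77%) and 27 fell (20.3%) at an adjusted p under 0.05 in limma with the line as a block, and 97 did not pass. Over all 9678 genes tested, 6.61% rose and 14.7% fell, and over all 21762 probe sets 6.78% rose and 11.5% fell. The share of solute carrier genes that rose was near that of all genes. The median log2 change was -0.201 for the solute carrier genes and -0.109 for all genes. Each log2 change given below is a mean over 3 lines (n = 3) with the standard error (SE) and adjusted p from that limma fit. All 36 genes that passed moved the same way in 3 of 3 lines, by 0.80 to 2.00 on the log2 scale for those that rose and by -2.55 to -0.50 for those that fell. The extremes, Slc29a2 (2.00) and Slc7a7 (-2.55), had signals under 100, so that their size is uncertain. Slc29a2, counted among the rises and the separate groups, entered only through an irradiated array. Among the 114 solute carrier genes at 100 or more on all 6 arrays, changes ran from -1.92 to 1.88. The groups of arrays did not overlap for 31 of the 133 genes that were lower after 1 Gy and for 16 that were higher. Over all genes, 20.6% had every 1 Gy array below every 0 Gy array and 12.3% had every 1 Gy array above.

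The counts rest on the pairing of the arrays and on all 3 lines. Without the block for the line, 3 genes rose (Slc2a6, Slc19a2 and Slc39a1) and 8 fell (Slc25a16, Slc25a15, Slc25a37, Slc10a7, Slc25a28, Slc35a1, Slc25a53 and Slc44a2), against 2.11% and 3.2% of all genes, and all 11 are among the 36. Without line 1, line 2 or line 3, limma called 0 genes higher, and it called 0, 0 and 1 lower, beside 12, 13 and 11 higher and 38, 37 and 38 lower at an unadjusted p under 0.05. Over all 21762 probe sets it called 0, 0 and 169 higher and 0, 0 and 130 lower. The loss of calls was thus not particular to solute carrier genes.

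**Figure D1:**
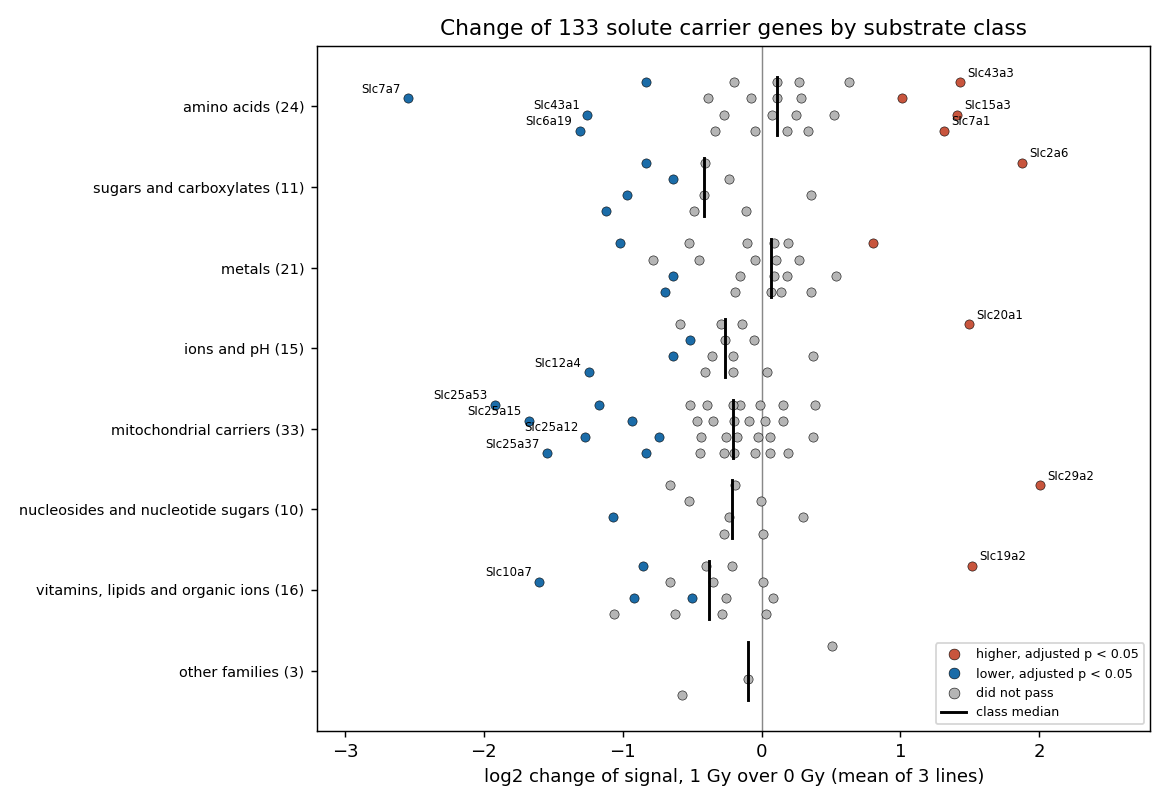
Log2 change of signal from 0 to 1 Gy (x axis, mean of 3 lines) for each of the 133 solute carrier genes, in rows by substrate class, with the number of genes in parentheses. Orange and blue points passed an adjusted p of 0.05, black bars are class medians, and the mitochondrial carriers hold 8 blue points and no orange one.

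Promoter sequence was matched to 104 of the 133 genes in RefSeq (assembly GRCm38.p6), which gave 146 windows of the 250 bases before a transcription start. The windows shown are of the genes with the largest fitted rises and the largest fitted fall. With signals under 100 set to 100, the changes of Slc29a2 and Slc7a7 were 0.16 and -1.29 and did not pass, and Slc2a6 (1.88) and Slc25a53 (-1.92) moved further. Slc20a1 and Slc7a7 have further windows, and for each the one that holds most motifs is shown. Each reads 5′ to 3′ on the gene's strand, and capitals mark matches, on either strand, to the Sp1 box (GGGCGG), the CCAAT box (CCAAT), the E-box of Myc and MiT factors (CACGTG), the metal response element (TGCNCNC), the amino acid response element (TGATGNAA), the AP-1 site (TGANTCA), the cyclic AMP response element (TGACGTCA) or the NF-κB site.
Slc29a2, chr19:5023756-5024005, plus strand: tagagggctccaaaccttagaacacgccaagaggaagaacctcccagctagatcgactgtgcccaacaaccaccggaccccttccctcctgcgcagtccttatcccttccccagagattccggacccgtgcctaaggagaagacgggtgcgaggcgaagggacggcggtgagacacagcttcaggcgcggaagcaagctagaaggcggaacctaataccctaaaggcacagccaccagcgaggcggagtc
Slc2a6, chr2:27027999-27028248, minus strand: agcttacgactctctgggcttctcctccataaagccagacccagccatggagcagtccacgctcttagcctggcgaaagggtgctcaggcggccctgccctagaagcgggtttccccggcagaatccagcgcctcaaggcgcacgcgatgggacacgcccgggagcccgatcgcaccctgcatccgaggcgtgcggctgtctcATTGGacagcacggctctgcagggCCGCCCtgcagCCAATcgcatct
Slc19a2, chr1:164248796-164249045, plus strand: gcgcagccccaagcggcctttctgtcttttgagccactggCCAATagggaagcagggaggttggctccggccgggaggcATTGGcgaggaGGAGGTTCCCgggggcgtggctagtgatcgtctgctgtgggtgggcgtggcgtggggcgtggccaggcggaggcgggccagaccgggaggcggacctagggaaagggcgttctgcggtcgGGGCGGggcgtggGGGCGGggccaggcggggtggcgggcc
Slc20a1, chr2:129198523-129198772, plus strand: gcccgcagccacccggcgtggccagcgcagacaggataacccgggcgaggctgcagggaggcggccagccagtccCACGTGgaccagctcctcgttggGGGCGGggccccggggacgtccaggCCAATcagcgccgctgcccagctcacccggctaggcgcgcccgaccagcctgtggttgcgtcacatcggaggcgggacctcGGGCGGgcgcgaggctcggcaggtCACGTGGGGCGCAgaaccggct
Slc7a7, chr14:54417703-54417952, minus strand: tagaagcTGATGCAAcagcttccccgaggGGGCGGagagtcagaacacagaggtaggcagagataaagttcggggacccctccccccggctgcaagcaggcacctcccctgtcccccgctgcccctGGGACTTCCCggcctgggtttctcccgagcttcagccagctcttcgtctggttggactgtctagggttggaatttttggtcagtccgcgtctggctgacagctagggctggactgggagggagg
The Slc29a2 window held no match. The Slc2a6 window held 1 Sp1 box and 2 CCAAT boxes. The Slc19a2 window held 2 Sp1 boxes, 2 CCAAT boxes and 1 NF-κB site. The Slc20a1 window held 2 E-boxes, the second of them adjoining a metal response element, with 2 Sp1 boxes and 1 CCAAT box. The Slc7a7 window held an amino acid response element, an Sp1 box and an NF-κB site.

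Over the 146 windows of solute carrier genes, 65.1% held the Sp1 box, against 32.7% of all 32851 windows, and 14.4% held the E-box, against 6.02%. The median GC content was 61.2% in the solute carrier windows and 52.4% in all windows. The solute carrier windows are of genes that reached the signal minimum in these cells, and the set of all windows was not limited to such genes. Whether these differences are particular to solute carrier genes was therefore not tested. The other motifs differed less. The CCAAT box was in 34.2% against 33.8%, the metal response element in 51.4% against 44.4%, the NF-κB site in 8.9% against 7.25%, the AP-1 site in 4.79% against 6.75%, the amino acid response element in 2.74% against 3.45% and the cyclic AMP response element in 2.05% against 1.55%. Among 34 windows of 23 genes that fell, 3 held the amino acid response element and 4 the E-box. The 3 include more than 1 window of Slc7a7, so that fewer than 3 genes are behind them. Among 9 windows of 7 genes that rose, 0 and 1 did. Windows of 1 gene can overlap, and a match is a description of these letters.

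Carriers of amino acids and peptides bring building blocks into the cell and move them out of lysosomes. Of 24 such genes, 4 rose (16.7%) and 4 fell (16.7%), against 6.61% and 14.7% of all genes. The median log2 change was 0.11. Slc7a1 is the main plasma membrane importer of arginine and other cationic amino acids. Its signal was 1914, 599.7 and 1257 in mock-irradiated lines 1, 2 and 3 and 2803, 2000.4 and 3925 after 1 Gy. All 3 irradiated arrays were above all mock arrays, and the log2 change was 1.31 ± 0.27 (SE, adjusted p = 0.041). Slc1a4, an exchanger of alanine, serine and cysteine, had signals of 133, 75.2 and 178 at 0 Gy and 278, 162 and 324 at 1 Gy. The groups overlapped, yet each line was higher after 1 Gy, with a log2 change of 1.01 ± 0.12 (SE, adjusted p = 0.016).

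The peptide and histidine transporters of lysosomes were both higher in each line. Slc15a3 had signals of 531, 302 and 189 at 0 Gy and 1114, 838 and 604 at 1 Gy, with no overlap, and rose by 1.41 ± 0.16 (SE, adjusted p = 0.0155) on the log2 scale. Slc15a4, chosen after its values were seen, had 3171, 3894 and 3634 at 0 Gy and 6049.7, 5256 and 5229.9 at 1 Gy. These groups did not overlap either, but its log2 change of 0.63 ± 0.15 (SE, adjusted p = 0.0526) missed the threshold. Slc43a3, which stands in the amino acid class by its family and is known as a carrier of purine nucleobases, rose from 1197, 281 and 655 to 2430.4, 974 and 1809 in lines 1, 2 and 3, a log2 change of 1.43 ± 0.18 (SE, adjusted p = 0.0176). Its groups overlapped, and in limma without the block for the line the adjusted p was 0.23.

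Of the 4 amino acid carriers that fell, Slc7a7 forms an exchanger with the heavy chain Slc3a2 that moves cationic against neutral amino acids. Its signal was 86.6, 811 and 786 in mock-irradiated lines 1, 2 and 3 and 6.30, 163 and 269 after 1 Gy. Line 1 was far below the other lines at both doses and the groups overlapped. The log2 change was -2.55 ± 0.45 (SE, adjusted p = 0.0294). In line 1 both signals were under 100, so that the size of its change is uncertain, and the log2 change was -2.31 in line 2 and -1.54 in line 3. With signals under 100 set to 100 the mean change was -1.29 and missed the threshold (adjusted p = 0.115). Slc6a19, a sodium-coupled importer of neutral amino acids best known from gut and kidney, had signals of 1734, 3227 and 3154 at 0 Gy and 768, 996 and 1518 at 1 Gy, with no overlap. It fell by 1.31 ± 0.17 (SE, adjusted p = 0.0177) on the log2 scale. Slc43a1, a carrier of large neutral amino acids, fell from 334, 267 and 375 to 149.8, 94.4 and 174, a log2 change of -1.26 ± 0.14 (SE, adjusted p = 0.0149), with no overlap.

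Slc1a5, the exchanger that brings in glutamine, had signals of 3972, 14288 and 9101 at 0 Gy and 2385, 7354 and 5222 at 1 Gy. The groups overlapped, with line 2 highest and line 1 lowest at either dose, and each line was lower after 1 Gy, with a log2 change of -0.83 ± 0.12 (SE, adjusted p = 0.02). Slc38a1 and Slc38a2, sodium-coupled glutamine importers and among the 8 brightest members, had log2 changes of 0.27 (adjusted p = 0.18) and 0.11 (adjusted p = 0.551), and 0 of the 6 Slc38 genes passed. The sign of the Slc38a2 change turned after quantile normalization. The heavy chain Slc3a2 and its leucine-carrying partner Slc7a5, both chosen after their values were seen, had log2 changes of 0.19 ± 0.15 (SE, adjusted p = 0.414) and -0.07 ± 0.40 (SE, adjusted p = 0.913).

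Carriers of sugars and carboxylates numbered 11, of which 1 rose (9.09%) and 4 fell (36.4%), against 6.61% and 14.7% of all genes. Their median log2 change was -0.41. Slc2a6, a hexose transporter of lysosomal membranes, had signals of 144, 187 and 240.2 at 0 Gy and 577, 564 and 986 at 1 Gy. Every irradiated array was above every mock array, a 3.67-fold rise with a log2 change of 1.88 ± 0.14 (SE, adjusted p = 0.0109). The genes that fell were Slc37a4, which carries glucose 6-phosphate into the endoplasmic reticulum (-1.12 ± 0.19, adjusted p = 0.0271), the intracellular hexose transporter Slc2a8 (-0.97 ± 0.17, adjusted p = 0.0285), the monocarboxylate transporter family member Slc16a4 (-0.83 ± 0.15, adjusted p = 0.0315) and, chosen after its values were seen, the sugar transporter Slc50a1 (-0.63 ± 0.14, adjusted p = 0.0471), each given as its log2 change with its SE. The mock and irradiated arrays overlapped for none of these 4 genes.

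Carriers of nucleosides and nucleotide sugars numbered 10, of which 8 did not pass. In this class 1 rose (10%) and 1 fell (10%), against 6.61% and 14.7% of all genes. Slc29a2, which lets nucleosides and nucleobases pass in either direction down their gradient, had signals of 50.5, 15.1 and 18 in mock-irradiated lines 1, 2 and 3 and 140.1, 65.5 and 96.4 after 1 Gy. The irradiated arrays lay above all mock arrays, but only line 1 at 1 Gy reached 100, so that the gene entered only through an irradiated array and the size of its change is uncertain. Its probe set is of the type marked x, whose probes can match other transcripts too, as is that of Slc44a2. The log2 change was 2.00 ± 0.21 (SE, adjusted p = 0.0147), and with signals under 100 set to 100 it was 0.16 and missed the threshold (adjusted p = 0.456). Slc29a1, the other widely expressed nucleoside transporter of the plasma membrane and chosen after its values were seen, had 524, 268 and 381 at 0 Gy and 312, 177 and 327 at 1 Gy, a log2 change of -0.52 ± 0.15 (SE, adjusted p = 0.0799). Slc35a1, which carries CMP-sialic acid into the Golgi, had 918, 1092 and 946 at 0 Gy and 523, 510.3 and 384 at 1 Gy. Its groups did not overlap, and it fell by 1.07 ± 0.14 (SE, adjusted p = 0.0184) on the log2 scale.

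**Figure D2:**
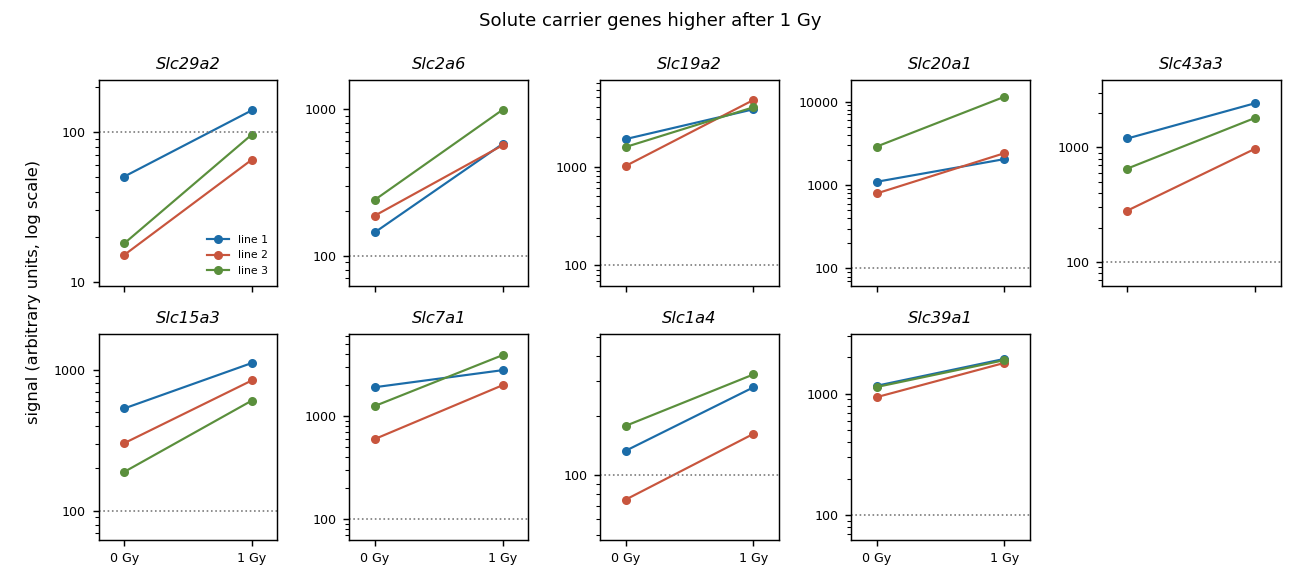
Signal (log axis, arbitrary units) at 0 and 1 Gy of the 9 solute carrier genes that rose, with 1 coloured line for each pre-B cell line and a dotted line at 100. Each of the 9 panels shows 3 rising lines, and Slc29a2 reaches 100 on 1 of its 6 arrays.

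Metal carriers numbered 21, of which 1 rose (4.76%) and 3 fell (14.3%), against 6.61% and 14.7% of all genes. Zinc is brought into the cytosol by the Slc39 family and moved out of it, to the outside or into vesicles, by the Slc30 family. Of 9 Slc39 genes 1 rose (11.1%) and 0 fell (median log2 change 0.09), and of 7 Slc30 genes 0 rose and 3 fell (42.9%, median -0.19). Slc39a1, a zinc importer of the plasma membrane, had signals of 1163, 937 and 1136 at 0 Gy and 1936, 1794 and 1891 at 1 Gy. The groups were separate, with a log2 change of 0.80 ± 0.12 (SE, adjusted p = 0.0215). The other 8 Slc39 genes include Slc39a10, chosen after its values were seen, with a log2 change of -0.78 ± 0.19 (SE, adjusted p = 0.058). Its next brightest probe set passed as lower (-0.77, adjusted p = 0.0324), and that of Slc30a7 passed as higher (0.49, adjusted p = 0.0477) while its brightest did not (0.10, adjusted p = 0.75).

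The 3 zinc efflux genes that fell had no overlap between doses. Slc30a5, which loads zinc into the early secretory pathway, had signals of 5285, 6679 and 7984 at 0 Gy and 2774, 2774 and 4428 at 1 Gy, a log2 change of -1.02 ± 0.14 (SE, adjusted p = 0.0187). Slc30a1, the zinc exporter of the plasma membrane, had 653, 773 and 723 at 0 Gy and 395, 473 and 456 at 1 Gy, a log2 change of -0.70 ± 0.11 (SE, adjusted p = 0.0241). Slc30a4, a vesicular zinc transporter, changed by -0.64 ± 0.11 (SE, adjusted p = 0.0295) on the log2 scale. Slc30a6, the partner of Slc30a5 and chosen after its values were seen, had a log2 change of 0.09 ± 0.11 (SE, adjusted p = 0.606). The metal-responsive factor Mtf1 and the metallothioneins Mt1 and Mt2 had log2 changes of 0.18, -0.31 and -0.55 and did not pass (adjusted p = 0.3, 0.194 and 0.116).

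Carriers of ions and pH numbered 15, of which 1 rose (6.67%) and 3 fell (20%), against 6.61% and 14.7% of all genes. Slc20a1 imports phosphate together with sodium. Its signal was 1092, 791 and 2884 in mock-irradiated lines 1, 2 and 3 and 2041, 2399.9 and 11365 after 1 Gy. It was higher in each line, but line 3 at 0 Gy lay above the irradiated arrays of lines 1 and 2. The log2 change was 1.49 ± 0.24 (SE, adjusted p = 0.0243) with the line as a block, and the adjusted p was 0.337 without it. The potassium chloride exporter Slc12a4 had 174, 184 and 218 at 0 Gy and 55.0, 89.6 and 107 at 1 Gy, with no overlap and a log2 change of -1.25 ± 0.18 (SE, adjusted p = 0.0203). A second potassium chloride exporter, Slc12a7, changed by -0.51 ± 0.11 (SE, adjusted p = 0.0448) on the log2 scale and missed the threshold after quantile normalization (adjusted p = 0.0595) and with a common median (adjusted p = 0.0786). With the mean of all its probe sets it was -0.30 (adjusted p = 0.303), the other probe set having changed by -0.09. Slc14a1, a urea channel, fell by 0.64 ± 0.11 (SE, adjusted p = 0.0301) on the log2 scale with overlapping groups, and missed the threshold with the mean of all its probe sets (-0.50, adjusted p = 0.052).

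The mitochondrial carrier family Slc25 exchanges metabolites, nucleotides and cofactors across the inner mitochondrial membrane. It was the largest family, with 33 genes, of which 0 rose and 8 fell (24.2%), against 6.61% and 14.7% of all genes. At an unadjusted p under 0.05, 2 of the 33 were higher and 10 lower, beside 1204 and 2695 of all 9678 genes. The median log2 change of the family was -0.20. Without the block for the line, 5 of the 33 fell and 0 rose, against 3.2% and 2.11% of all genes. All 8 that fell with the block had irradiated arrays below every mock array. Among the 33 genes 10 did so, against 20.6% of all genes.

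Both iron importers of the inner membrane fell. Slc25a37 had signals of 1228, 1193 and 1505 at 0 Gy and 547, 361 and 447 at 1 Gy, a log2 change of -1.55 ± 0.17 (SE, adjusted p = 0.0148). Slc25a28 had 1485, 1739 and 1598 at 0 Gy and 849, 837 and 830.4 at 1 Gy, a log2 change of -0.94 ± 0.12 (SE, adjusted p = 0.0174). The glycine carrier Slc25a38, which serves heme synthesis and was chosen after its values were seen, changed by -0.74 ± 0.13 (SE, adjusted p = 0.0299) on the log2 scale. Slc25a15, which brings ornithine into the matrix for the urea cycle, had 1000.0, 991 and 769 at 0 Gy and 329, 318 and 222 at 1 Gy. Its log2 change of -1.68 ± 0.12 (SE, adjusted p = 0.0103) was at the lowest adjusted p of the 36 genes that passed.

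The aspartate and glutamate exchanger Slc25a12 had signals of 724, 727 and 1198 at 0 Gy and 399, 238 and 474 at 1 Gy and a log2 change of -1.27 ± 0.18 (SE, adjusted p = 0.0206). Slc25a16, linked to coenzyme A in the matrix, had 895, 1066 and 915 at 0 Gy and 444, 414 and 415 at 1 Gy and changed by -1.17 ± 0.13 (SE, adjusted p = 0.015). Slc25a51, which brings NAD into mitochondria, had 5852, 8365 and 8278 at 0 Gy and 3609, 4513 and 4422 at 1 Gy and changed by -0.83 ± 0.12 (SE, adjusted p = 0.0202). For these 3 genes the irradiated arrays were below the mock arrays without overlap. Slc25a53, a carrier family member, had 1144, 982 and 2179.7 at 0 Gy and 447, 304 and 335 at 1 Gy, a log2 change of -1.92 ± 0.29 (SE, adjusted p = 0.0224). Its change of -1.36, -1.69 and -2.70 in lines 1, 2 and 3 differed among the lines.

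The bulk carriers of phosphate and adenine nucleotides did not pass the test. Slc25a3, the phosphate carrier, had signals of 13843, 13509.8 and 13715 at 0 Gy and 15626, 13846 and 16451 at 1 Gy and a log2 change of 0.16 ± 0.12 (SE, adjusted p = 0.385). Slc25a5, an ADP and ATP exchanger, had 15597, 11471 and 9231 at 0 Gy and 13229, 10768 and 10927 at 1 Gy and a log2 change of -0.03 ± 0.14 (SE, adjusted p = 0.905). The sign turned after quantile normalization for Slc25a3, and with a common median or without line 1 or line 2 for Slc25a5. Slc25a4, another ADP and ATP exchanger chosen after its values were seen, had a log2 change of -0.52 ± 0.15 (SE, adjusted p = 0.0812), and the pyrimidine nucleotide carrier Slc25a36 had one of 0.37 ± 0.13 (SE, adjusted p = 0.114). Slc25a36 passed as higher with limma's trend (adjusted p = 0.0349) and with the mean of all probe sets (0.47, adjusted p = 0.0473), and its next brightest probe set passed as higher (0.55, adjusted p = 0.0416).

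**Figure D3:**
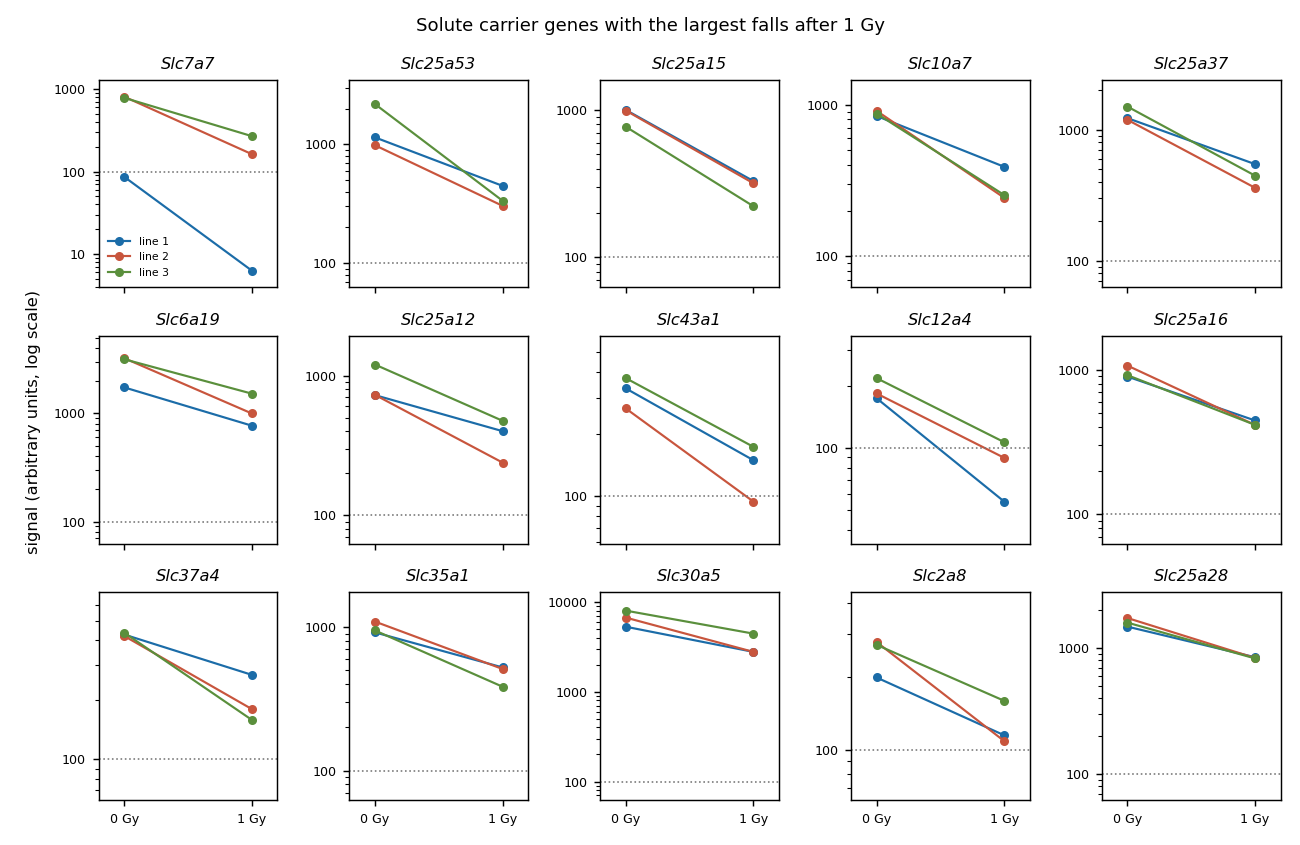
Signal (log axis, arbitrary units) at 0 and 1 Gy of the 15 solute carrier genes with the largest falls among those that passed, with 1 coloured line for each pre-B cell line and a dotted line at 100. Every line falls in every panel, and Slc7a7 is the panel in which line 1 lies far below lines 2 and 3.

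Carriers of vitamins, lipids and organic ions numbered 16, of which 1 rose (6.25%) and 4 fell (25%), against 6.61% and 14.7% of all genes. Their median log2 change was -0.38. The 2 Slc19 genes moved in opposite directions. Slc19a2, the thiamine importer, had signals of 1897, 1015 and 1578 at 0 Gy and 3796, 4714 and 3979 at 1 Gy, a 2.86-fold rise with no overlap and a log2 change of 1.52 ± 0.26 (SE, adjusted p = 0.0287). Slc19a1, the reduced folate importer and chosen after its values were seen, had 706, 524 and 498 at 0 Gy and 483, 398 and 339 at 1 Gy. Its log2 change of -0.50 ± 0.11 (SE, adjusted p = 0.0491) was the smallest fall that passed. Slc10a7, a relative of the bile acid transporters, had 843, 911 and 874 at 0 Gy and 389.8, 244 and 254 at 1 Gy, a log2 change of -1.60 ± 0.20 (SE, adjusted p = 0.017), with all irradiated arrays below the mock arrays. Slc44a2, a choline transporter-like protein and among the 8 brightest members, had 8015, 9259 and 8264 at 0 Gy and 5441, 4241 and 4502 at 1 Gy, a log2 change of -0.85 ± 0.15 (SE, adjusted p = 0.031). Its next brightest probe set changed by -0.47 and did not pass, while the mean of all its probe sets passed in limma (-0.83, adjusted p = 0.0152). The lysosomal protein Slc46a3 changed by -0.92 ± 0.16 (SE, adjusted p = 0.0287) on the log2 scale, and with signals under 100 set to 100 by -0.22, which did not pass. The remaining 3 genes, of the Slc49 and Slc66 families, did not pass.

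The 3 lines differed from each other in some of these carriers at both doses. The line effect passed an F test in limma (adjusted p under 0.05) in 18 of the 133 genes (13.5%), against 9.7% of all genes. The range among the lines, taken on the means of both doses, was larger than the size of the change with dose in 85 of the 133 genes and in 8 of the 36 that passed the dose test. This count was not made over all genes. The median range was 0.51 on the log2 scale for the solute carrier genes and 0.40 for all genes. The dose and the line effect both passed in 7 genes, the dose effect alone in 29 and the line effect alone in 11. Among the 18 genes, line 3 was highest in 11, line 2 in 4 and line 1 in 3.

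Slc15a2, a plasma membrane importer of small peptides, differed most. Its signal was 48.3, 5193 and 3727 in mock-irradiated lines 1, 2 and 3 and 15.9, 6288 and 4664 after 1 Gy. Line 1 stayed under 100 at both doses and lines 2 and 3 were far above it, a range of 7.69 on the log2 scale (adjusted p = 0.0103 for the line effect in limma). Slc7a7 had the next largest range among genes that reached a mean of 100 in a line, 4.30 (adjusted p = 0.0302), again with line 1 lowest.

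Line 3 was lowest in a different pair of genes. The fatty acid transport protein Slc27a1 had signals of 366, 363 and 64.9 at 0 Gy and 318, 267 and 65.8 at 1 Gy, a range of 2.38 (adjusted p = 0.011 for the line effect). The choline transporter Slc44a1 had 3546, 1312 and 680.1 at 0 Gy and 2900.2, 964 and 664 at 1 Gy, a range of 2.25 (adjusted p = 0.0129). Lines 1 and 2 were close to each other in Slc27a1, while in Slc44a1 line 2 lay nearer to line 3 than to line 1. In Slc20a1 line 3 was highest, with a range of 2.05 (adjusted p = 0.0352). Slc66a2 had a range of 1.98 with line 2 highest (adjusted p = 0.028), and Slc14a1 one of 1.98 (adjusted p = 0.0117). Slc37a2, a sugar phosphate exchanger, had a range of 2.08 that did not pass (adjusted p = 0.0612).

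**Figure D4:**
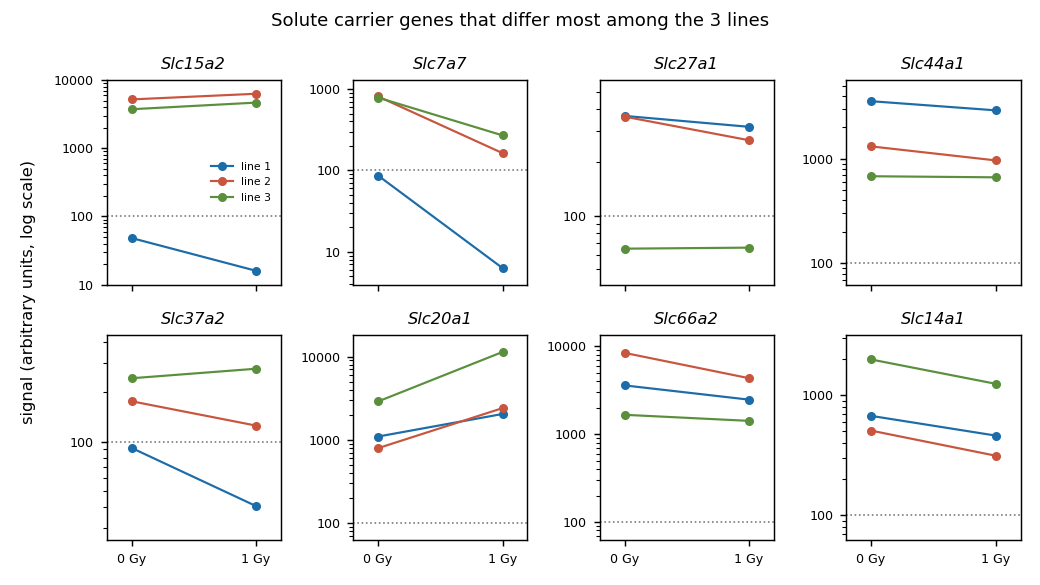
Signal (log axis, arbitrary units) at 0 and 1 Gy of the 8 solute carrier genes with the largest range among the 3 pre-B cell lines, with 1 coloured line for each and a dotted line at 100. In Slc15a2 line 1 lies between 15.9 and 48.3 while lines 2 and 3 lie between 3727 and 6288.

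More than 1 probe set was tested for 62 of the 133 genes, which gives a second measurement on the same arrays. The brightest and the next brightest had the same sign of change in 52 of 62. Of the 62 genes 17 had passed by their brightest probe set, and all 17 had the same sign in the next, which passed as well in 8. In Slc25a36, Slc30a7, Slc39a10 and Slc48a1 the next brightest passed and the brightest did not. No gene that passed by its brightest probe set had another probe set called in the opposite direction. In Slc19a2 the 3 probe sets changed by 1.52, 1.54 and 1.5 on the log2 scale. In Slc25a53 the brightest changed by -1.92 and the other by -0.004, so that its fall was seen by 1 probe set of 2. Slc25a10, the dicarboxylate carrier, changed by -0.47 and -1.63, and Slc5a3, a carrier of myo-inositol, by 0.36 and 1.97. Neither passed by its brightest or its next brightest probe set, and both were chosen after their values were seen.

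**Figure D5:**
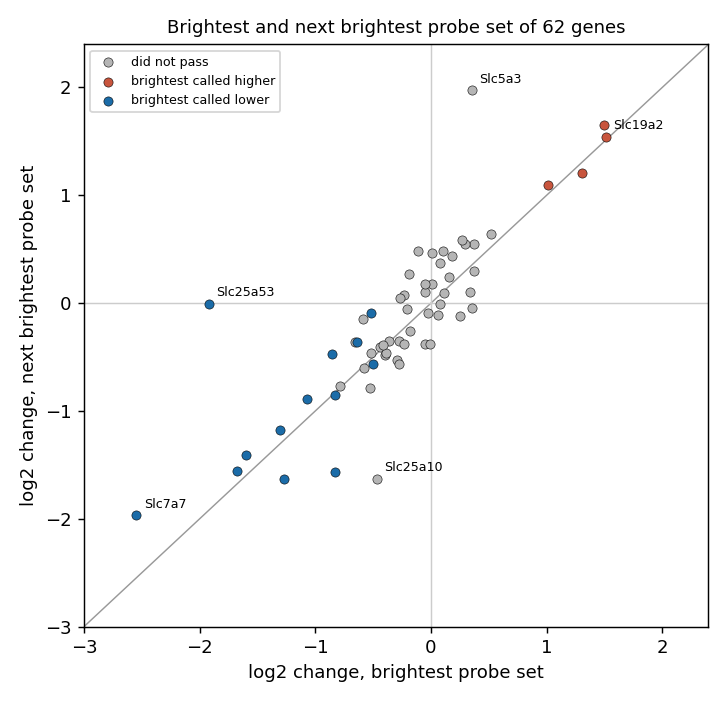
Log2 change from 0 to 1 Gy in the brightest (x axis) and the next brightest probe set (y axis) of the 62 solute carrier genes with more than 1, coloured by the call of the brightest, with the line of equality. Slc25a53 lies at -1.92 and -0.004, far from the line, and Slc19a2 at 1.52 and 1.54 close to it.

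Genes that act with these carriers gave mixed counts. Of 27 genes of amino acid sensing and of the response to amino acid lack, 7 rose (25.9%) and 4 fell (14.8%). The shares of all genes were 6.61% and 14.7%, and the median log2 change of the 27 was 0.05. Without the block for the line, 2 rose (Tfe3 and Rraga) and 2 fell (Nprl3 and Lamtor2). Asns, the asparagine synthetase, rose by 1.25 ± 0.18 (SE, adjusted p = 0.02) on the log2 scale, Sesn2, a leucine sensor, by 1.11 ± 0.13 (SE, adjusted p = 0.016) and Atf4, the factor that drives amino acid response genes, by 0.53 ± 0.12 (SE, adjusted p = 0.0487). The others that rose were Tfe3, Rraga, Chac1 and Ddit3, with log2 changes of 1.49, 1.24, 1.01 and 0.83. Those that fell were Nprl3, Lamtor2, Lamtor4 and Eif2ak4, with log2 changes of -0.96, -0.78, -0.69 and -0.67. Of 14 partners of carriers and genes of the metal response 0 rose and 2 fell (14.3%). These were the ubiquitin ligase Nedd4 (-1.04 ± 0.13, adjusted p = 0.0172) and Slc9a3r1 (-0.50 ± 0.12, adjusted p = 0.0498), a scaffold protein and not a carrier.

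Other transport genes were counted in the same fit. Of 21 ABC transporters, the pumps driven by ATP, 1 rose (4.76%) and 5 fell (23.8%), against 6.61% and 14.7% of all genes. Their median log2 change was -0.19. Of 14 subunits of the vacuolar proton pump, which acidifies lysosomes, 1 rose (Atp6v0a1, 1.09 ± 0.11, adjusted p = 0.014) and 0 fell, with a median of 0.09. Of the carriers set aside, 4 were measured and 2 of these fell, the lactate and pyruvate transporter Slc16a1 (-2.42 ± 0.23, adjusted p = 0.0128) and the iron importer Slc11a2 (adjusted p = 0.0233). All 3 irradiated signals of Slc11a2 were under 100 (23.8, 87.4 and 88.2), so that the size of its fall is uncertain.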

How the data were processed

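Gene expression was measured on 6 Affymetrix Mouse 430 2.0 arrays. The authors deposited 1 linear intensity value for each probe set, and the processing tool recorded by the submitters is MAS5. After trimming 2% of probe sets at either end, the mean signal is 500 on each array. The RMA and quantile steps of the study's methods are not in these values. Signals of different probe sets are not comparable levels, and precision is limited by the number of arrays. Signals under 1 were set to 1 and taken to log2. Without 64 control probe sets, 21762 of 45037 probe sets reached 100 on at least 1 array and were tested with limma 3.58.1 in R 4.3.3, with dose and line as factors and Benjamini-Hochberg adjustment over all of them. The script was tested on simulated data. P-values for dose are two-sided and rest on the spread of the change with dose among the lines, which limma moderates with that of other probe sets. The F test of the line effect uses the same residual spread. Of the tested probe sets, 18126 have 1 gene symbol in the platform annotation, and 3636 are listed with several or not listed and were left unnamed.

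The design text of the series ties each replicate number to 1 cell line. Deviations from the group means, taken over all tested probe sets, had correlations of 0.668 to 0.781 between the mock and the irradiated array of 1 line. Between a mock and an irradiated array of different lines they were -0.495 to -0.0525. Centring each dose on its own mean forces negative values between lines where those within lines are positive, so that their sign adds nothing. The fit without the block is an alternative, as the methods' ANOVA names dose only. The other alternatives were the filter, the scaling, the floor or offset, limma's trend, the mean of all probe sets, the methods' test and leaving out each line.

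The solute carrier genes, their classes and the gene lists were chosen with earlier results of these data known. Named are up to 15 genes that passed with the largest rises and 15 with the largest falls (same direction in 3 lines, mean signal of 100 in the brighter group), up to 4 per class, the 8 brightest, the 8 with the largest range among lines, and the 2 that passed whose change differed most among lines. Genes outside this rule are marked.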

Additional observations from a re-analysis of the deposited data

How the results depend on the processing

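All genes that passed kept their sign under every alternative in which they were measured. Without the block for the line, 3 solute carrier genes passed as higher and 8 as lower, against 9 and 27 with it, beside 419 and 556 against 1475 and 2499 over all probe sets. Without a filter on signal, 0 rose and 0 fell and the line effect passed in 0, beside 20 higher and 37 lower of 302 genes at an unadjusted p under 0.05, and the median log2 change was -0.106. Of all 45037 probe sets, 0 rose and 0 fell in that fit as well. With each line left out, 0 to 0 rose and 0 to 1 fell, and the median was -0.221 to -0.167. Over all probe sets 0 to 169 rose and 0 to 130 fell. With limma's trend, 14 rose, 35 fell and the line effect passed in 42, and over all probe sets 2400 rose and 3721 fell. The methods' test gave 6 higher and 24 lower, and after Benjamini-Hochberg adjustment 0 higher and 3 lower, beside 10 and 26 at an unadjusted p under 0.05. Over all probe sets it gave 1121 higher and 1729 lower, and after adjustment 172 and 180. The median was -0.115 after quantile normalization and -0.152 with a common median. Signs turned in genes that did not pass. Slc15a2 changed by 0.200 with signals under 100 set to 100 and by -0.661 to 0.300 with each line left out, Slc25a3 by -0.011 and Slc38a2 by -0.029 after quantile normalization, and Slc25a5 by 0.021 with a common median and by -0.164 to 0.076 with each line left out. No detection calls were used, which limits what can be said of dim genes such as Slc29a2.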
